A study of Mus musculus with 24 samples.

Results

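The genes described here mark and drive the mesenchymal-to-epithelial transition (MET). They are Cdh1, Epcam, Esrp1, Cdh2, Vim, Zeb1, Zeb2, Snai1, Snai2 and Twist1, 10 of the 37315 genes with a normalized count. They were chosen by name, with earlier results of these data known, and all 10 were found by their symbols. RNA was sequenced from 24 libraries, 2 replicates of each of 12 populations, in which neural precursor cells (NPCs) of a mouse were reprogrammed toward induced pluripotent stem cells with or without the cytokine interferon gamma (IFNγ). The cells came from the PaX system, a female hybrid M. musculus/M. castaneus line (129S1/SvImJ and CAST/EiJ alleles) with a doxycycline-inducible MKOS reprogramming cassette in the Sp3 locus, a Tsix truncation, and the X-GFP reporter of X chromosome activity. NPCs and the parental embryonic stem cells (ESCs, grown without feeders) were the end points. Control and IFNγ-treated cells were taken at day 2, at day 5 and at day 7, where they were split by X-GFP level into negative, medium and high cells. Treated cells received IFNγ (10 ng/ml) from the start until day 5, so the day 7 cells had been without it since then. All reprogramming cells, controls included, received doxycycline and grew on irradiated male mouse embryonic fibroblasts. Day 2 cells were sorted as negative for the dye CFSE that stained the feeders, and day 5 and day 7 cells as positive for SSEA1, a surface marker of cells on the way to pluripotency. All libraries trace back to 1 engineered line.

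In the GENCODE vM21 annotation of mm10, Cdh1 lies on chromosome 8 at 106603351 to 106670246, Epcam on chromosome 17 at 87635979 to 87651129, and Esrp1 on chromosome 4 at 11331933 to 11386783. Vim (13573927 to 13582826), Zeb2 (44983632 to 45117395) and Snai1 (167538195 to 167542814) are on chromosome 2, and Twist1 is on chromosome 12 at 33957671 to 33959829. Snai2 is on chromosome 16 at 14705852 to 14709385. Cdh2 and Zeb1 are on chromosome 18, at 16588877 to 16809246 and 5591860 to 5775467. The annotation places Zeb2os on the opposite strand of Zeb2. How the authors' counting treated strand is not given in the sources used here, and Zeb2os held 0 to 163 normalized counts against 17.5 to 5623 for Zeb2.

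Mesenchymal cells lack the tight lateral junctions of an epithelium, move singly and are rich in vimentin filaments, whereas epithelial and pluripotent cells adhere through E-cadherin. The transcription factors of the Zeb, Snail and Twist families repress epithelial genes, and the miR-200 family in turn represses Zeb1 and Zeb2, so that both sides hold each other in check. Fibroblasts must pass through MET to become pluripotent, and neural cells, which carry N-cadherin, exchange it for E-cadherin. Libraries held 24746109 to 37056508 reads on genes. The normalized count is the read count divided by the size factor of the library, and values are given below as replicate 1 and replicate 2. Overlap of libraries between groups only describes these values, and the share of all genes without overlap was not counted. With 2 libraries against 2, separation alone cannot give an exact permutation p under 0.333. RNA of whole populations was measured, so fewer cells that express a gene and less RNA per cell cannot be told apart. The study calls its 2 replicates independent, and neither it nor the labels say at which step they were separated, so p-values measure only the spread between these libraries.

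The sequences through which the Zeb side and the epithelial side meet are shown first. Mature miR-200 family members have 2 seeds, bases 2 to 8, given in capitals. The sequences are from RefSeq (GRCm38.p6).
miR-200a-3p: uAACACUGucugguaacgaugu
miR-141-3p: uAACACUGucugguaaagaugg
miR-200b-3p: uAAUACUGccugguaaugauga
miR-200c-3p: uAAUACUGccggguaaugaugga
miR-429-3p: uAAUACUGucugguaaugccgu
The genes of miR-200a, miR-200b and miR-429 are on chromosome 4, and those of miR-141 and miR-200c are on chromosome 6. The longest annotated 3′ end of Zeb2 after its stop codon spans 4941 bases. It holds 4 matches to the first seed and 5 to the second, and none of 1342 other genes whose 3′ ends are within 25% of that length held 9 or more matches in all. Zeb1 shares this trait. Its 3′ end spans 2401 bases with 4 and 5 matches, and none of 3330 other genes of similar length held 9 or more. The first match to each seed is shown in capitals with its surroundings, on the minus strand of chromosome 2 in the 3′ UTR of Zeb2, at chr2:44988354-44988378 and chr2:44988170-44988194.
Zeb2 match to the first seed: gcaaaaattttgtaCAGTGTTaagg
Zeb2 match to the second seed: gcactaccatacatCAGTATTttat
Total RNA libraries of this kind do not measure mature miRNAs. The 5 hairpin genes had at most 6.33 normalized counts in any library.

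Zeb and Snail proteins bind the E-box CACCTG and its reverse complement CAGGTG. Of the 5 genes with a promoter in the RefSeq table (Epcam, Vim, Zeb2, Snai1 and Twist1), Epcam held 2 such E-boxes in the 250 bases before to 50 after its start, 187 and 19 bases upstream of it. Of all 32851 promoters of that length, 20.2% held at least 1 on either strand and 2.88% held 2 or more. Snai1 held 1, and Vim, Twist1 and the 4 promoters of Zeb2 held none. The Epcam promoter is chr17:87635729-87636028 on the plus strand (GRCm38.p6), with the E-boxes in capitals.
Epcam promoter: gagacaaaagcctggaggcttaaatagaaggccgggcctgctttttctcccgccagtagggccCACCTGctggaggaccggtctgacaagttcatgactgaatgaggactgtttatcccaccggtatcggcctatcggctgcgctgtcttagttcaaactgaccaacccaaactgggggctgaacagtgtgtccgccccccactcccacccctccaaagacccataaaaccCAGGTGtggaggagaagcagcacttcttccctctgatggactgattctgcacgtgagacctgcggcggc
A match of letters describes the sequence and is not a measured binding site.

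NPCs and ESCs differed in all 10 genes. Cdh1, the gene of E-cadherin, had 271 and 379 normalized counts in NPCs and 10148 and 10289 in ESCs. Epcam, an epithelial adhesion molecule, had 39.9 and 39.5 in NPCs and 2609 and 2469.5 in ESCs. Esrp1, a regulator of epithelial splicing, had 4.86 and 10.5 in NPCs and 448 and 392 in ESCs. All 3 epithelial genes were lowest in NPCs among the 12 populations. Cdh2, the gene of N-cadherin, fell from 8250.4 and 7845 in NPCs to 129.7 and 131 in ESCs. Vim had 37743 and 43344 in NPCs and 2532 and 2649 in ESCs. Zeb2 fell from 5623 and 5570.4 to 17.7 and 21.9, a log2 fold change of -8.08 ± 0.14 (SE), whereas Zeb1 kept 474 and 456 of 3393 and 2796, a change of -2.73 ± 0.11. The related factors thus ended at different levels in pluripotent cells, with 45.3 mean normalized counts per kilobase of exon for Zeb1 in ESCs and 0.992 for Zeb2. With limma on log2(normalized count + 1) and the threshold of adjusted p under 0.1, all 10 genes passed between ESCs and NPCs, 3 higher in ESCs and 7 lower. Over all genes tested, 42.2% were called higher and 43.4% lower. The call of Snai1 was lost without ESC replicate 1 (-1.41, adjusted p = 0.191) or replicate 2 (-1.14, adjusted p = 0.261), and its log2 fold change of -1.28 ± 0.46 became -0.63 without NPC replicate 2 and -1.92 without NPC replicate 1. Snai2 had 32.1 and 67.6 in NPCs and 6.88 and 0.952 in ESCs, and stayed between 3.22 and 10.7 at day 7.

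**Figure D1:**
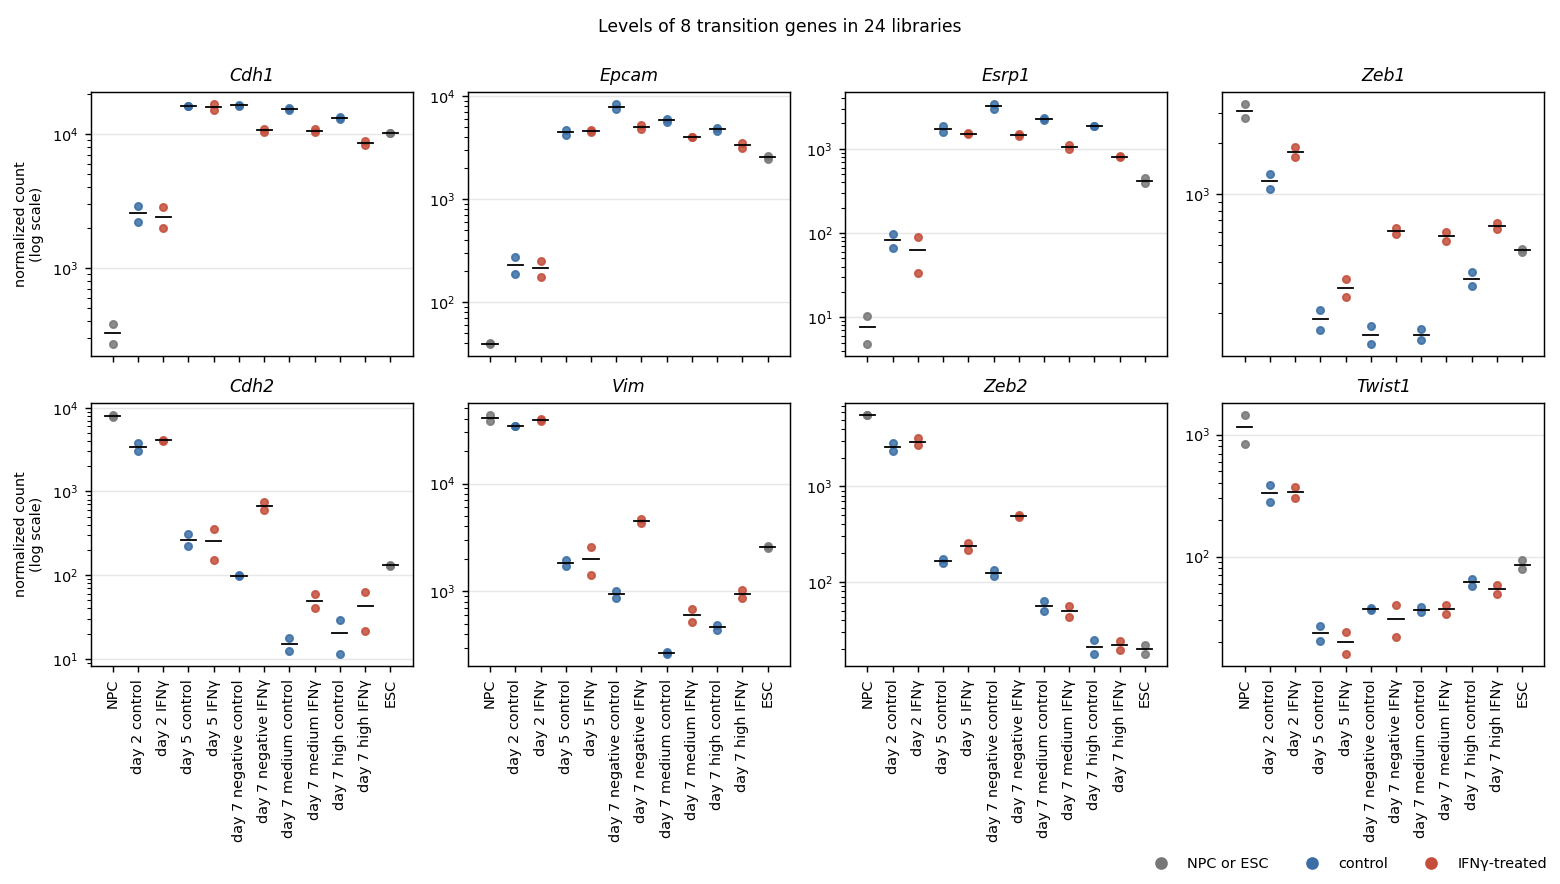
Normalized counts on a log scale for 8 of the 10 genes in the 12 populations, ordered from NPCs through days 2, 5 and 7 to ESCs. Points are single libraries and lines are means of 2. Cdh1, Epcam and Esrp1 are lowest in NPCs and Zeb1, Cdh2, Vim, Zeb2 and Twist1 are highest there, and at day 7 the IFNγ-treated points of Zeb1 lie above all 6 control points.

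By day 2 of reprogramming, control cells had gained epithelial RNA while Vim was still near its NPC level. At day 2, Cdh1 was at 2927 and 2197, Epcam at 273 and 188, and Esrp1 at 98.8 and 66.5, and no library of day 2 overlapped one of NPCs. These were log2 fold changes of 2.98 ± 0.20, 2.48 ± 0.25 and 3.32 ± 0.43. Zeb1, Zeb2, Cdh2 and Twist1 had fallen at this time, with log2 fold changes of -1.37 ± 0.14, -1.11 ± 0.10, -1.25 ± 0.11 and -1.74 ± 0.29. Vim, the gene of the filament protein vimentin, was still at 34285 and 34148 against 37743 and 43344 in NPCs. Its log2 fold change of -0.24 ± 0.10 passed the threshold at adjusted p = 0.0822, but not without day 2 control replicate 1 (0.339), day 2 control replicate 2 (0.347) or NPC replicate 2 (-0.14, 0.225), nor with DESeq2, edgeR or all 24 libraries in 1 fit. Counted over the 10 genes, 3 were higher and 5 lower, beside 31.6% and 37.6% of all genes tested. Day 2 libraries also held feeder RNA. The 4 Y-linked genes, which only the male feeders carry, summed to 253 and 218 normalized counts in day 2 controls against 1.94 and 0 in NPCs. The 9 fibroblast markers were also present in NPCs and do not single out feeders. They summed to 61592 and 41543 against 29295 and 41949 in NPCs, which overlap. Of these markers 4 were called higher and 2 lower, with a median log2 fold change of 0.13. The part of feeders in the day 2 values of the 10 genes, Vim and Twist1 among them, was not tested.

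Between day 2 and day 5 every gene passed the threshold. Cdh1 reached 16261 and 16199, Epcam 4649 and 4229, and Esrp1 1876 and 1571, log2 fold changes of 2.68 ± 0.12, 4.29 ± 0.17 and 4.39 ± 0.20. Vim fell to 1962 and 1719 (-4.22 ± 0.08), Zeb2 to 157 and 175 (-3.96 ± 0.12), Cdh2 to 306 and 223 (-3.69 ± 0.17), and Zeb1 to 157 and 208 (-2.72 ± 0.17). No library of day 5 overlapped one of day 2 for any of these 7 genes, and the share of all genes without overlap was not counted. Twist1, a factor of mesoderm and neural crest, fell from 386 and 279 to 26.9 and 20.4. Snai2, the gene of Slug, fell from 28.5 and 28.8 to 3.37 and 0.888. Snai1, the gene of Snail, was the only factor of its kind that rose, from 41.8 and 20.8 to 57.2 and 51.5, with a log2 fold change of 0.86 ± 0.37 and adjusted p = 0.079. That call was lost without day 2 control replicate 2 (0.37, adjusted p = 0.389), day 5 control replicate 1 (0.78, 0.21) or replicate 2 (0.93, 0.144), and with DESeq2, with no filter on low values and after rescaling. In all, 4 genes were higher and 6 lower, beside 34.9% and 35.6% of all genes. Y-linked genes were at 5.89 and 2.66 in day 5 controls and fibroblast markers at 2579 and 1721, so both sets fell together with Vim. Their part in its fall was not tested. Rescaling every library to the same total moved the median over all genes by -0.13 in this comparison.

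At day 7 the control cells separated by X-GFP. From day 5 to X-GFP–negative cells, Epcam rose further to 8350.3 and 7501 and Esrp1 to 3385 and 2984, log2 fold changes of 0.84 ± 0.08 and 0.89 ± 0.10, while Cdh1 at 16618 and 16399 was not called. Cdh2 fell to 99.8 and 96.6, Vim to 1007 and 874, and Zeb2 to 115 and 134. With Twist1 (36.2 and 37.6), 3 genes were called higher and 3 lower, beside 34.2% and 29.5% of all genes. The calls of Zeb2 (-0.41, adjusted p = 0.0683) and Twist1 (0.63, 0.0951) were lost without day 5 control replicate 2, with values of -0.33 and 0.44, and without X-GFP–negative control replicate 1 (-0.30 and 0.66) or replicate 2 (-0.52 and 0.60).

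The X-GFP–medium cells, in which more of the X chromosome reporter was active, held less Cdh2, Vim and Zeb2 RNA. Cdh2 was at 17.8 and 12.4 and Vim at 262 and 275, log2 fold changes against X-GFP–negative cells of -2.64 ± 0.25 and -1.80 ± 0.09. Zeb2 was at 63.3 and 49.6. Zeb1 was at 138 and 159 and overlapped the 131 and 166 of X-GFP–negative cells. Epcam (6011 and 5639.8) and Esrp1 (2298 and 2194) were lower than in X-GFP–negative cells as well. The call of Esrp1 was lost with limma on all 24 libraries in 1 fit (-0.50, adjusted p = 0.261). No gene was higher and 5 were lower, beside 21.9% and 25.2% of all genes. After rescaling to the same total the split of calls over all genes in this comparison was 4408 higher and 2912 lower, against 3363 and 3871.

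From X-GFP–medium to X-GFP–high control cells, Zeb1 rose again, to 288 and 346, a log2 fold change of 1.08 ± 0.13 (adjusted p = 3.65e-06). Vim also rose, to 439 and 492 (0.79 ± 0.10), and Twist1 to 57.7 and 65.1 (0.72 ± 0.22). Zeb2 moved the other way, to 17.5 and 24.6 (-1.39 ± 0.27), so the 2 Zeb genes parted. Cdh1 (13416 and 13048), Epcam (4938 and 4561) and Esrp1 (1869 and 1842) fell, with log2 fold changes of -0.22 ± 0.04, -0.29 ± 0.05 and -0.28 ± 0.06. Here 3 genes were higher and 5 lower, beside 31.4% and 32.7%. The fifth was Snai1 (-0.41, adjusted p = 0.086), whose call was lost without X-GFP–medium control replicate 2 (-0.27, 0.418) or X-GFP–high control replicate 2 (-0.28, 0.322). With all 24 libraries in 1 fit only Zeb2 stayed past the threshold among the genes that were lower.

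With IFNγ, 1 of the 10 genes passed the threshold at day 2 and none at day 5, counts that rest on the fit without pairing of the replicates. Zeb1 was at 1079 and 1318 in day 2 controls and at 1647 and 1909 in IFNγ-treated cells, with no overlap and a log2 fold change of 0.57 ± 0.12 (adjusted p = 0.0459). The call was lost without day 2 control replicate 1 (0.43, adjusted p = 0.157), without day 2 IFNγ-treated replicate 2 (0.47, 0.129) and with no filter on low values (0.57, 0.137). Of all genes 5.03% were higher and 3.45% lower. Cdh2 (4040.3 and 4094 against 3043 and 3749.8) and Vim (39443 and 38056 against 34285 and 34148) had values without overlap, log2 fold changes of 0.27 ± 0.10 and 0.18 ± 0.06, and adjusted p = 0.192 and 0.139. With DESeq2 Vim passed (adjusted p = 0.0745), and Cdh2 passed without day 2 control replicate 2 (0.42, 0.04). Zeb2, at 2687 and 3194 against 2363 and 2842, overlapped. The epithelial genes overlapped too, with Cdh1 at 2839 and 1988, Epcam at 251 and 177, and Esrp1 at 90.7 and 33.6 in treated cells. The fibroblast markers were lower in treated cells, at 30959 and 25472, and 4 of the 9 were called lower and 0 higher. Y-linked genes were at 125 and 223, with 0 of 4 called. Neural precursor markers, which moved in the direction of Zeb1, summed to 17359.7 and 19026 in treated and 13437 and 16928 in control cells, and 2 of 8 were called higher. The part of these markers in the values of Zeb1, Cdh2 and Vim was not tested.

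At day 5, 0 of the 9 genes tested passed, as Snai2 was too low to be tested. The count at an unadjusted p under 0.05 was 2, beside 2839 of the 15133 genes tested, so this count alone does not set the genes apart. At the adjusted threshold DESeq2 and edgeR gave 0 and 0. By that threshold 1.65% of all genes were higher and 0.535% lower. The 2 genes with an unadjusted p under 0.05 were Zeb1 and Zeb2. Zeb1 was at 316 and 246 against 157 and 208, and Zeb2 at 255 and 218 against 157 and 175. Neither overlapped between the arms, and the share of all genes without overlap was not counted. The log2 fold changes of Zeb1 and Zeb2 were 0.62 ± 0.21 and 0.51 ± 0.17, each with adjusted p = 0.198. In the fit of all 24 libraries adjusted p was 0.0259 and 0.0979. Among treated cells of day 5, Cdh1 was at 15152 and 16776 and Epcam at 4521 and 4708, and both overlapped their controls. Esrp1, at 1520.3 and 1488, was below its controls without overlap and was not called. Cdh2 (352 and 153) and Vim (2587 and 1410.1) spread on both sides of their controls. No difference in the IFNγ effect was called between day 5 and day 2 by an interaction test with limma, in which 0 of 10 passed for a larger and 0 for a smaller effect, 0 had an unadjusted p under 0.05, and DESeq2 and edgeR gave 0 and 0. Of all genes 0.202% and 0.474% did. Without day 5 IFNγ-treated replicate 1, 1 gene had a smaller effect.

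**Figure D2:**
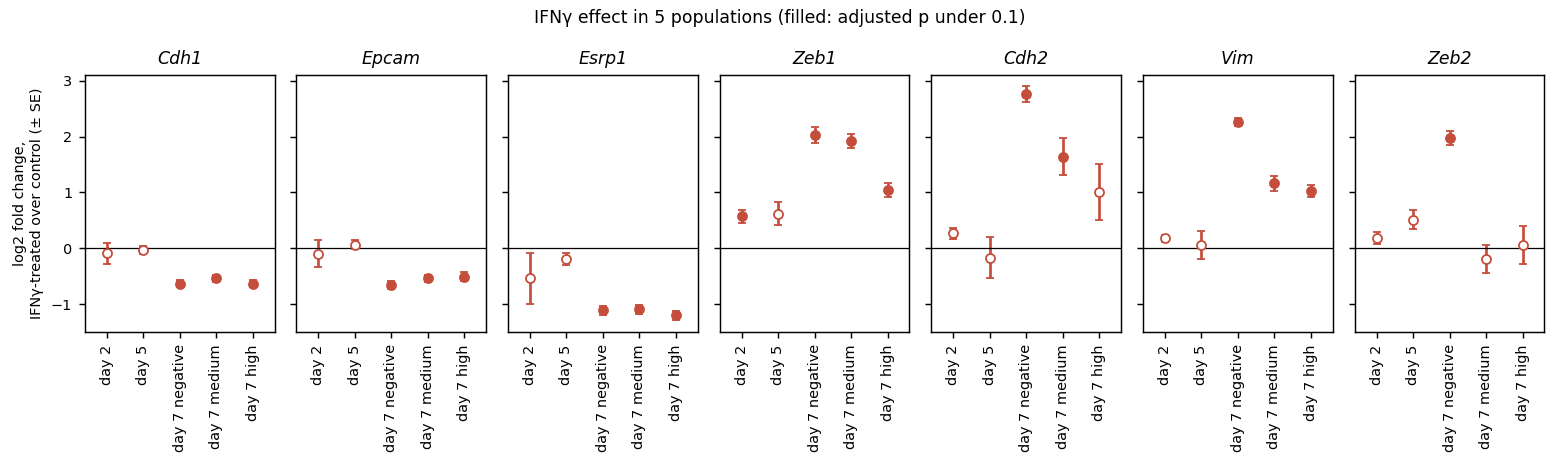
Log2 fold change of IFNγ-treated over control cells for 7 genes, with its SE, at day 2, day 5 and in the 3 populations of day 7, from 2 against 2 libraries each. Filled points passed adjusted p under 0.1. Zeb1 lies above 0 in all 5 populations, and Cdh1, Epcam and Esrp1 lie below 0 with filled points in the 3 populations of day 7.

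At day 7, 2 days after IFNγ had ended, both sides of the transition differed. In X-GFP–negative cells Cdh1 was at 10451 and 10956 against 16618 and 16399 in controls, a log2 fold change of -0.63 ± 0.06 (adjusted p = 2.46e-05). Epcam was at 5289 and 4776 (-0.65 ± 0.07), and Esrp1 at 1505 and 1437 (-1.11 ± 0.08). The epithelial genes were thus lower but stayed far above NPCs. Cdh2 rose from 99.8 and 96.6 to 593 and 756, 6.76-fold, and Vim from 1007 and 874 to 4339.6 and 4672, 4.79-fold. Zeb1 was at 634 and 579 against 131 and 166, 4.09-fold, and Zeb2 at 484 and 498 against 115 and 134, 3.93-fold. Folds are on the scale of log2(normalized count + 1). No library of the 2 arms overlapped for any of these 7 genes, and the share of all genes without overlap was not counted. Snai1 (80.5 and 69.3) and Twist1 (39.7 and 21.8) overlapped their controls. Of the 9 genes tested, 4 were higher and 3 lower, beside 31.1% and 30.8% of all genes, so these shares alone do not set the genes apart. In this comparison rescaling to the same total moved the median over all genes by 0.16 and the split of all calls from 4836 higher and 4781 lower to 6730 and 3417. The 7 calls and their directions held under it.

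In X-GFP–medium cells the same 3 epithelial genes were lower. Cdh1 was at 10304 and 10959.7 against 15190.3 and 15622, Epcam at 4034 and 3968 against 6011 and 5639.8, and Esrp1 at 998 and 1121 against 2298 and 2194. The log2 fold changes were -0.54 ± 0.06, -0.54 ± 0.06 and -1.09 ± 0.08. Zeb1 was at 600.1 and 529 against 138 and 159 (1.92 ± 0.13), Vim at 522 and 690.1 against 262 and 275 (1.16 ± 0.13), and Cdh2 at 40.3 and 58.6 against 17.8 and 12.4 (1.64 ± 0.33). Zeb2 was not called here, at 42.5 and 56.5 in treated and at 63.3 and 49.6 in control cells, which overlap. Snai1, at 72.8 and 64.8 against 75.1 and 90.9, did not overlap and was not called. The calls were 3 higher and 3 lower, beside 33.3% and 29.6% of all genes.

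In X-GFP–high cells Cdh1 was at 8291 and 8856 against 13416 and 13048 (-0.63 ± 0.07), Epcam at 3516 and 3163 against 4938 and 4561 (-0.51 ± 0.08), and Esrp1 at 805 and 814 against 1869 and 1842 (-1.20 ± 0.08). Zeb1 was at 676 and 622 against 288 and 346 (1.04 ± 0.12), and Vim at 873 and 1026 against 439 and 492 (1.02 ± 0.11). Esrp1 had the largest fall of the 3 epithelial genes in each population of day 7. Cdh2 was at 21.7 and 63.6 against 11.3 and 28.8, which overlap, with 1.00 ± 0.50 and adjusted p = 0.159. This value rests on single libraries. It was 0.24 without treated replicate 2, 1.75 without treated replicate 1, 0.36 without control replicate 1 and 1.63 without control replicate 2, and it passed in the fit of all 24 libraries (adjusted p = 0.0948). Zeb2 (19.4 and 24.3), Snai1 (69.7 and 60.1) and Twist1 (58.3 and 49.7) overlapped their controls. The calls were 2 higher and 3 lower, beside 18.1% and 20.4% of all genes.

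The size of the IFNγ effect was compared between the populations of day 7 by interaction tests with limma over 8 libraries. It was smaller in X-GFP–medium than in X-GFP–negative cells for Zeb2 (-2.16 ± 0.26, adjusted p = 0.00158), Vim (-1.10 ± 0.17, 0.00468) and Cdh2 (-1.11 ± 0.33, 0.0644). For Zeb1 the difference was -0.11 ± 0.20 (0.775). It was 0.09 ± 0.07 for Cdh1, 0.11 ± 0.10 for Epcam and 0.03 ± 0.11 for Esrp1, none past the threshold, and these 3 values turned negative after rescaling to the same total (-0.08, -0.05 and -0.14). So 3 of 9 genes had a smaller and 0 a larger effect, beside 8.36% and 7.31% of all genes. Rescaling to the same total moved the median over all genes by -0.16 in this test and the split of all calls from 1142 larger and 1307 smaller to 399 and 2867. The call of Cdh2 was lost without X-GFP–negative control replicate 1 (-1.14, adjusted p = 0.144) or 2 (-1.09, 0.141), X-GFP–negative treated replicate 2 (-0.94, 0.212), X-GFP–medium control replicate 1 (-0.87, 0.208) or X-GFP–medium treated replicate 1 (-0.85, 0.156), and in the edgeR fit. Between X-GFP–high and X-GFP–medium cells, Zeb1 alone had a smaller effect (-0.88 ± 0.18, adjusted p = 0.0178), 1 of 9 genes beside 8.06% smaller and 4.71% larger over all genes. The split of all calls was 736 larger and 1259 smaller, 36.9% larger, against 47.5% with edgeR. The epithelial genes were not called, at -0.09 ± 0.08 for Cdh1, 0.03 ± 0.10 for Epcam and -0.11 ± 0.10 for Esrp1.

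Control X-GFP–high cells held more epithelial RNA than ESCs. Esrp1 was 4.42-fold, Epcam 1.87-fold and Cdh1 1.29-fold above ESCs, and Vim was 5.56-fold and Zeb1 1.47-fold below. Snai1, at 68.1 and 56.6 against 19.7 and 16.2, was 3.35-fold above. In all 4 genes were higher and 4 lower, beside 37.9% and 37.8% of all genes. After IFNγ the X-GFP–high cells lay nearer to ESCs for Esrp1 (1.93-fold above), Epcam (1.31-fold above) and Vim (2.73-fold below). Both comparisons share the ESC libraries. Zeb1 passed to the other side, at 676 and 622 against 474 and 456 in ESCs, a log2 fold change of 0.48 ± 0.10 (adjusted p = 0.00128). Cdh1 did the same in the opposite direction, at 8291 and 8856 against 10148 and 10289 (-0.25 ± 0.07, 0.00638), a call that the fit of all 24 libraries did not make. Again 4 genes were higher and 4 lower, beside 33.2% and 33.9%. Cdh2 was below ESCs in both arms, with log2 fold changes of -2.78 ± 0.33 and -1.78 ± 0.37. Without single X-GFP–high replicates the first was -2.14 to -3.41 and the second -1.03 to -2.53. Twist1 was also below in both (-0.48 ± 0.20 and -0.66 ± 0.22), calls that were lost without ESC replicate 2 (-0.35, adjusted p = 0.237, and -0.54, 0.16), the first also without X-GFP–high control replicate 1 (-0.39, 0.203).

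The order of populations differed among the genes. Cdh1 was highest in X-GFP–negative controls (mean 16509), followed by day 5 controls (16230.1), day 5 IFNγ-treated cells (15964) and X-GFP–medium controls (15406), of which day 5 treated cells overlapped both of their neighbours. Epcam and Esrp1 were also highest in X-GFP–negative controls, at means of 7926 and 3184, apart from X-GFP–medium controls at 5825 and 2246. Zeb1 was highest in NPCs and lowest in X-GFP–negative and X-GFP–medium controls, whose means of 148 and 149 overlap. The 3 IFNγ-treated populations of day 7 followed directly after day 2 for Zeb1, at means of 649, 606 and 565, and neighbours among them overlapped. Zeb2 was lowest in ESCs, X-GFP–high controls and X-GFP–high treated cells, at 19.8, 21 and 21.8, which all overlap. Snai1 varied least, between 16.2 and 90.9 over the 24 libraries, and most of its neighbours in the order overlapped.

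Exchange of the cadherins was read per library as the log2 ratio of Cdh1 to Cdh2, each as (normalized count + 1) per kilobase of exon. NPCs were at -4.10 and -3.55, an excess of Cdh2 of 14.2-fold. Day 2 controls were near parity, at 0.76 and 0.05, and IFNγ-treated cells at 0.31 and -0.22 overlapped them. By day 5 Cdh1 led 109-fold in controls (6.54 and 7.00) and 121-fold in treated cells (6.24 and 7.59). ESCs were at 7.10 and 7.10. At day 7 X-GFP–negative controls were at 8.18 and 8.21 and treated cells at 4.96 and 4.67, below both arms of day 5. X-GFP–medium controls stood at 10.48 and 11.01 against 8.78 and 8.34, and X-GFP–high controls at 10.90 and 9.59 against 9.33 and 7.92. In the 3 populations of day 7 the treated libraries were below the control libraries without overlap. No test was made of this ratio, and 2 libraries against 2 cannot give an exact permutation p under 0.333.

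**Figure D3:**
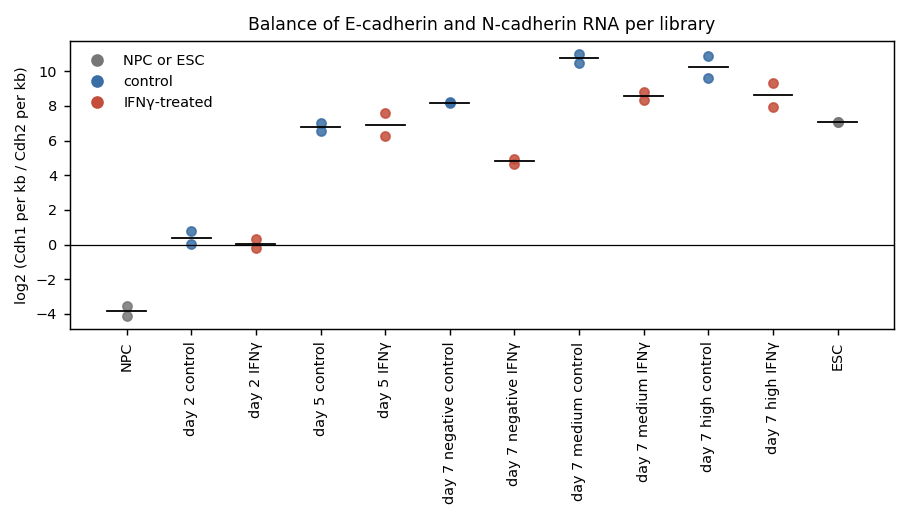
Log2 ratio of Cdh1 to Cdh2 per kilobase of exon in each library, with lines at the mean of 2. NPCs lie below 0, day 2 cells near 0, and the treated X-GFP–negative cells at 4.96 and 4.67 below the day 5 cells.

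At day 7 most genes of 2 epithelial lists, chosen with earlier results of these data known, were lower too. Of 30 junction and keratin genes, all tested with limma, 1 was lower at day 2 and 0 at day 5, beside 3.45% and 0.535% of all genes. At day 7, 0 were higher, and 29, 25 and 26 were lower in negative, medium and high X-GFP cells respectively, with median log2 fold changes of -0.92, -1.05 and -1.06 against 0.02, 0.04 and 0.03 over all genes. Krt19, a keratin of simple epithelia, fell from 11472 and 9141 to 2932 and 2766 in X-GFP–negative cells, and Dsp, the desmoplakin gene of desmosomes, from 9605 and 7502 to 1270.4 and 1502 in X-GFP–high cells. Dsc2, a desmosomal cadherin, fell from 5163 and 5088 to 724 and 979.7 in X-GFP–medium cells. Among 15 epithelial regulators, 10 of 15 tested fell and 3 rose in X-GFP–negative cells, 9 of 14 fell and 3 rose at the medium level, and 9 of 14 fell and 2 rose at the high level, with medians of -0.87, -0.54 and -0.66. Over all genes 30.8%, 29.6% and 20.4% fell and 31.1%, 33.3% and 18.1% rose in these 3 populations. Of these regulators 2 of 13 tested fell at day 2 and 2 of 14 at day 5, and 0 rose. Over all genes 3.45% and 0.535% fell at these times, and 5.03% and 1.65% rose. Ovol1, a repressor of Zeb1 in epithelia, fell from 1072 and 951 to 180.4 and 254 in X-GFP–negative cells. Klf5, a factor of early embryo and epithelia, rose from 1554 and 1722 to 2801 and 2924 in X-GFP–high cells, and Tfap2c rose 1.48-fold in X-GFP–negative cells. Esrp2, the partner of Esrp1 in splicing, was lower at day 2 (400.1 and 303 against 676 and 493) and at day 5 (1041 and 1002 against 1630.2 and 1354), when Esrp1 was not called.

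**Figure D4:**
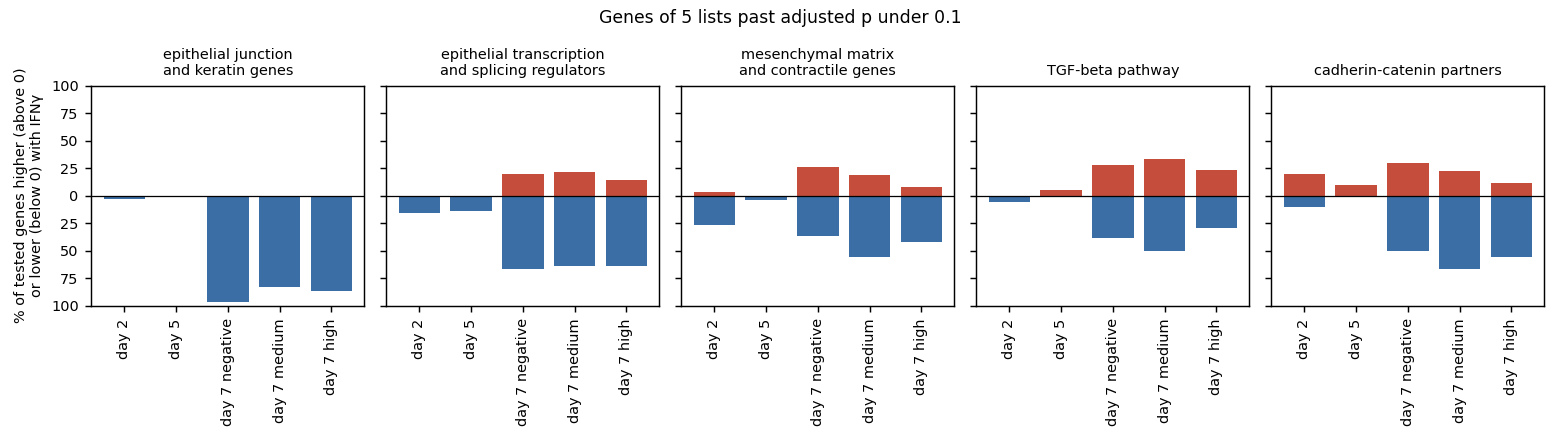
Share of the tested genes of 5 lists called higher (above 0) or lower (below 0) in IFNγ-treated over control cells, in percent, in 5 populations. Of 30 junction and keratin genes 25 to 29 are lower at day 7, whereas the mesenchymal list holds calls in both directions.

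The mesenchymal matrix and contractile list held calls in both directions. Of 30 genes tested at day 2, 8 fell and 1 rose, beside 3.45% and 5.03% of all genes. The list shares genes such as Dcn and Thy1 with the fibroblast markers, of which 4 of 9 were lower at day 2. Their part in these counts was not tested. Of 27 tested at day 5, 1 fell and 0 rose, beside 0.535% and 1.65% of all genes. At day 7, 10 of 27 tested fell and 7 rose in X-GFP–negative cells, 15 of 27 fell and 5 rose at the medium level, and 11 of 26 fell and 2 rose at the high level. In X-GFP–negative cells these counts lie near the shares over all genes, 30.8% lower and 31.1% higher, beside 29.6% and 33.3% at the medium and 20.4% and 18.1% at the high level. The medians in these 5 populations were -0.18, -0.10, -0.14, -0.51 and -0.19. Dcn, the gene of the matrix protein decorin, fell from 4299.7 and 3801 to 219 and 287 in X-GFP–negative cells, and Col6a1, of collagen VI, was lower in all 5 populations. Fn1, of fibronectin, rose from 20964 and 20907 to 34890.1 and 31715 in X-GFP–medium cells, and Tgfbi rose 3.12-fold in X-GFP–negative cells. Of 18 genes of the TGF-beta pathway, which induces Zeb and Snail factors, 7 fell and 5 rose in X-GFP–negative cells, 9 fell and 6 rose at the medium level, and 5 of 17 tested fell and 4 rose at the high level. At day 2, 1 fell and 0 rose, and at day 5, 1 rose and 0 fell, beside the shares for these days given above. In negative and high cells these counts too lie near the shares over all genes just given. The receptor genes Tgfbr3 and Tgfbr1 rose in X-GFP–negative cells, 2.74-fold and 1.64-fold, and Ltbp1, which holds latent TGF-beta in the matrix, fell 2.72-fold. Of the 10 cadherin and catenin partners, 5 of 10 tested fell and 3 rose in X-GFP–negative cells, 6 of 9 fell and 2 rose at the medium level, and 5 of 9 fell and 1 rose at the high level, while 1 fell and 2 rose at day 2 and 1 rose at day 5. The 3 of 10 that rose in X-GFP–negative cells stand beside 31.1% of all genes. The calls of day 2 and day 5 stand beside the shares for these days given above. Ctnnb1, the gene of beta-catenin, was higher in the 3 populations of day 7, from 1.15-fold to 1.27-fold, while its relative Jup was lower, from 1.56-fold to 1.93-fold.

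Markers of other cell types were read beside these results. Over all genes 31.1%, 33.3% and 18.1% were called higher and 30.8%, 29.6% and 20.4% lower in negative, medium and high X-GFP cells, so counts near these shares do not set markers apart. In X-GFP–negative cells primitive endoderm markers summed to 1055 and 1188 after IFNγ against 543 and 551, and 4 of 5 were called higher, with Sox17 at 139.6 and 139.6 against 9.87 and 16.1. They moved with Zeb1, Zeb2, Cdh2 and Vim there. The sum includes Foxa2, at 364 and 477 against 146 and 168, a gene that was at 1549.9 and 2037 in NPCs. It is thus not particular to endoderm in these data. At the medium level, where Zeb1, Cdh2 and Vim rose, the endoderm markers summed to 617 and 731 against 543 and 531. There 3 of 5 were higher and 1 lower, with a median log2 fold change of 1.62, against 1.16 in X-GFP–negative cells. At the high level they summed to 376 and 337 against 438 and 425, with 2 higher and 2 lower. Their part in the values of these genes was not tested. Squamous markers moved with Cdh1, Epcam and Esrp1, summing to 2552 and 3491 against 8137 and 7324, with 4 of 4 tested lower. At the medium level they summed to 1403 and 2231 against 4794 and 5096, with 4 of 4 tested lower, and at the high level to 757 and 1068 against 2476 and 2186, with 3 of 3 lower. Their part was not tested. Of 7 pluripotency markers, 6, 7 and 6 rose in negative, medium and high cells. Neural markers summed to 5759 and 5916 against 5207 and 5126 in X-GFP–negative cells, where 2 of 7 tested rose and 1 fell, to 2149.6 and 2433 against 3326 and 3601 at the medium level, where 1 of 5 tested rose and 2 fell, and to 1421 and 1509 against 2138 and 2105 at the high level, where 1 of 4 rose and 2 fell. Feeder RNA was low in all day 7 libraries, with Y-linked sums between 1.03 and 12.5, and the fibroblast sum was lower after IFNγ in all 3, mostly through Dcn.

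The genes most like each main gene over the 12 population means, by Pearson's r of log2(normalized count + 1) among 11364 genes, are a description, since populations share their origin and the libraries 1 normalization. For Cdh1 they were Tnk1 (0.994), Kdf1 and Cldn4 (both 0.993). For Epcam they were Grb7 (0.996), Ap1m2 and Tmem30b (both 0.993), and for Esrp1 Stxbp2 (0.995), Arhgef16 (0.992) and Pmm1 (0.991). For Zeb1 they were Axin2 (0.980), a Wnt target gene, Gnb4 (0.968) and Armc9 (0.967), and for Zeb2 the neural factor Sox11 (0.993), Pcdh18 (0.990) and Nrep (0.989). Cdh2 had Parp8 and Ptn (both 0.981) and Vim (0.980). Between the genes themselves, Epcam and Esrp1 had 0.99 and Cdh2 and Vim 0.98, whereas Zeb1 and Zeb2 had 0.68.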

How the data were processed

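The data were 24 RNA-seq libraries, 2 for each of 12 populations, grouped by their labels. The authors prepared stranded total RNA libraries depleted of ribosomal RNA, mapped reads by STAR with WASP on an mm10 genome masked at strain variants, and scaled HTSeq gene counts by DESeq2 size factors; per the labels' processing notes HTSeq was version 0.6.1. The deposited signal values are these normalized counts. They were whole multiples of 1 step in each library (100% of values within 0.01 steps), which gave back the reads. Allelic proportions of X-linked genes were deposited as well and not used, as no gene described here is X-linked.

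Genes were named by GENCODE vM21, which held 95% of the identifiers. limma 3.58.1 in R 4.3.3 (lmFit, eBayes with trend, two-sided) was fitted to log2(normalized count + 1) for 13 comparisons and 3 interactions, each on its own groups and on all genes with a mean above 10, with Benjamini-Hochberg adjustment and the study's threshold of 0.1. Replicates of 1 group differed by more than counting noise (chi-square per degree of freedom 3.16 to 19.3). The procedure was tested on simulated data. From lists, at most 2 genes per direction and comparison were eligible to be named, the largest changes past the threshold without overlap and with a mean of at least 100 in 1 group. The most similar genes were the 3 with the highest r among genes with a mean of at least 100 whose symbol or type is not a Gm, Rik or pseudogene one. Alternatives were a pseudocount of 0.1, no filter, scaling to equal totals, 1 joint fit of the 24 libraries, a replicate block, DESeq2 1.42.0 and edgeR 4.0.16 (quasi-likelihood) on the reads, and leaving out each library. The genes and lists were chosen with earlier results of these data known. Figures used Python 3.11.15 and matplotlib 3.10.9.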

Additional observations from a re-analysis of the deposited data

Results flagged for a closer look

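For 4 results the effect of IFNγ differed between populations by an interaction test with limma, as the change in log2 fold change. In medium against negative X-GFP cells these were Zeb2 (-2.16), Vim (-1.10) and Cdh2 (-1.11). Vim and Cdh2 had a smaller increase in X-GFP–medium cells, and Zeb2 had no increase there (-0.19 ± 0.25, not called). In high against medium X-GFP cells it was Zeb1 (-0.88), with a smaller increase in X-GFP–high cells. Groups of 2 libraries are too small to test for a single library far from the others.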

How the results depend on the processing

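Over the 16 tests, 86 of 149 values of single genes passed the threshold. Among all genes the calls of a test ranged from 0.202% larger and 0.474% smaller to 42.2% higher and 43.4% lower. The pooled count alone thus does not set these genes apart. None of the 86 changed direction under any alternative. Of them 16 lost the call in at least 1 alternative, among them Snai1 in 3 comparisons and Twist1 in 4. The cause was not tested. Of the 63 values that did not pass, only the 12 whose fold change is printed were followed one by one, a choice made after all had been seen. Over all 63, the sign changed 5 times after rescaling and 3 times each with DESeq2 and edgeR. Leaving out 1 library at a time refitted each value several times. The sign changed in 64 of these refits, and neither sign nor call changed in 276. With no filter on low values 0 genes were higher at day 2 after IFNγ, with DESeq2 2, and 0 to 2 when 1 library was left out. The joint fit of 24 libraries gave 2 genes higher at day 5 and 1 lower from medium to high X-GFP controls. Leaving out 1 library gave 0 to 1 genes with a smaller effect at day 5 than day 2.

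Same-numbered libraries deviated together in the day 2 and day 5 comparisons of IFNγ (correlation over genes 0.406 and 0.363) and less at day 7 (0.187, 0.107 and 0.0239), but with 2 pairs the numbers do not establish pairing. With the replicate block 4 genes were higher and 1 lower at day 2 and 2 higher at day 5. The shares of all genes called in that fit are not given here, so these counts alone do not set the genes apart. No other count of these genes moved by over 1.5 times. In the limma fit with the block, adjusted p was 0.000128 (Cdh2, day 2), 0.0529 (Vim, day 2), 0.0108 (Zeb1, day 5), 0.0315 (Zeb2, day 5), 0.0207 (Cdh2, X-GFP–high) and 0.126 (Vim, day 2 controls against NPCs). For day 2 controls against NPCs the correlation was -0.146, and a block with crossed numbers, chosen after seeing the data, gave 3 higher and 5 lower.

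Rescaled to the same total, the differences of IFNγ effect between medium and negative X-GFP cells turned to -0.08 (Cdh1), -0.05 (Epcam) and -0.14 (Esrp1). Without single libraries that of Esrp1 was -0.07 to 0.12 and that of Zeb1 -0.29 to 0.06, and that of Epcam between high and medium X-GFP cells was -0.04 to 0.11.

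Without gene length the cadherin ratio was 6.28 in ESCs, -4.65 in NPCs, -0.41 and -0.78 in day 2 control and treated cells, 5.95 in day 5 controls, 7.38 and 4.0 in X-GFP–negative control and treated cells, and 9.92 and 7.74 in X-GFP–medium ones, so the sign at day 2 rests on the length. A pseudocount of 0.1 gave 7.11 in ESCs. With 2 libraries a group, small changes of low genes such as Snai2 could not be resolved.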
